A study of Triticum aestivum with 18 samples.

Results

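The response of wheat to NaCl was compared between roots and leaves, gene by gene, to find the genes that salt changed differently in these organs. The comparison took all 12 libraries of salt-treated and control roots and leaves, of 18 libraries in the series, and 79339 genes with enough reads to be tested, of 134610 genes in the count table. For each gene, the salt change is the log2 ratio of NaCl to control in one tissue, and the tissue difference is the salt change of the root minus that of the leaf. A positive difference therefore means a salt change that was higher in root, and a negative one a salt change that was lower in root.

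Seedlings of Triticum aestivum cultivar Jimai 22, a variety described as NaCl-tolerant, were grown in 1/4-strength Hoagland solution, and 150 mM NaCl was applied to the treated plants. RNA was sequenced from roots treated with NaCl (TG), control roots (CG), leaves treated with NaCl (TY) and control leaves (CY), taken 4 days after NaCl was added, with 3 biological replicates of each. Each replicate pooled 10 roots or 10 leaves (the third leaf), so a value is a mean over several plants. The study also had roots and leaves given the autophagy inhibitor 3-methyladenine (3-MA, 5 mM) before NaCl, and these entered no test between the tissues.

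Salt acts on a plant first as a lack of available water and later as sodium and chloride that build up in the tissue. The root meets the salt directly, takes up or keeps out ions and water and builds barriers of suberin and lignin in its walls, whereas the leaf receives what the transpiration stream carries and has to adjust photosynthesis and carbon use. Wheat is a hexaploid, and most of its genes exist as near-identical homeologous copies on the A, B and D subgenomes, which can share reads. The strand setting of the counting was not stated, so overlapping genes on opposite strands cannot be told apart either.

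The 12 libraries held 27156078 to 31944933 counted reads each. The 10 most abundant genes took 1.3 to 1.44% of reads in NaCl roots and 1.43 to 1.78% in control roots, and 2.59 to 2.72% in NaCl leaves against 3.89 to 6.42% in control leaves. The tissue labels matched their markers: the summed level of chlorophyll a-b binding genes was 56.9 to 96 CPM (read counts relative to the TMM-scaled library size) in NaCl roots, 243 to 393 in control roots, 18900 to 22800 in NaCl leaves and 44000 to 84500 in control leaves, while the 2 annotated high-affinity nitrate transporters had 11.4 to 45.3, 17.9 to 25.1, 0 and 0 CPM in the same groups. Control leaf replicate 2 stood apart from the other control leaves in some of the genes described here, with high levels of some defence genes. Over the chlorophyll synthesis genes it also stood apart, with a sum of 614 CPM against 995 and 961 in replicates 1 and 3. It did not stand alone in the sums of the following groups. In control leaf replicates 1, 2 and 3, the chlorophyll a-b binding genes summed to 61500, 44000 and 84500 CPM. The chitinase, thaumatin-like and wheatwin group summed to 359, 512 and 493 CPM. Some results that rest on replicate 2 are given with and without it. In whole organs a smaller number of cells of a type and less RNA per cell cannot be told apart.

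The salt change differed between root and leaf in 8790 genes, which was 11.1% of the genes tested (edgeR quasi-likelihood test of the interaction, Benjamini-Hochberg adjusted p of 0.05 or less). The change was higher in root for 4892 genes (6.17% of those tested) and lower in root for 3898 genes (4.91%). The median size of the difference among these genes was 1.75 on the log2 scale, and 7434 of them differed by 1 or more. Over all genes tested, the median difference was -0.04. Within each tissue, salt changed 23163 genes in roots (29.2%) and 17904 in leaves (22.6%). The number of calls was lowest, 5296, without control root replicate 2, and was 5647 without NaCl root replicate 2.

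Most of the genes with a tissue difference changed in 1 tissue only by the test. Of the 8790 genes, 2123 rose in root with no call in leaf and 1703 fell in root with no call in leaf, while 1676 fell in leaf with no call in root and 1399 rose in leaf with no call in root. In 162 genes salt raised the level in both tissues and in 282 it lowered it in both, but by different amounts. A further 331 genes passed the test of the difference while neither tissue passed its own. Over the 57368 genes that had enough reads in each tissue alone, the salt changes of root and leaf had a Pearson correlation of 0.36 across genes, and over the 7793 of them with a tissue difference it was -0.08. These are descriptions of this set of libraries, since genes are not independent replicates and the difference itself chose the second set.

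**Figure D1:**
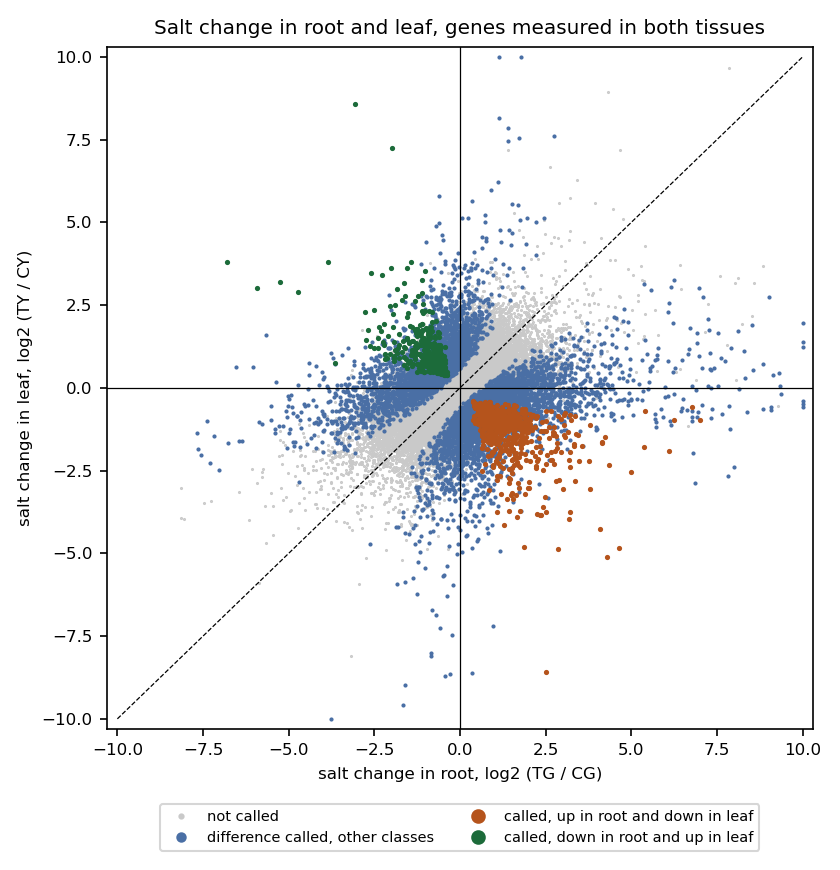
Salt change in root (log2 TG over CG, x axis) against salt change in leaf (log2 TY over CY, y axis) for the 57368 genes measured in both tissues, with values beyond 10 drawn at 10 and the dashed line marking equal changes. Genes with a called tissue difference lie away from the dashed line, and those called in opposite directions fill the lower right quadrant (up in root and down in leaf) and the upper left quadrant (down in root and up in leaf).

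Salt moved 1114 genes in opposite directions in root and leaf (opposite-direction calls), which was 1.4% of the genes tested. Of these, 716 (0.902%) rose in root and fell in leaf, with median salt changes of 1.29 in root and -1.17 in leaf, and 398 (0.502%) fell in root and rose in leaf, with medians of -0.97 in root and 1.05 in leaf. In 674 of the 716 and 378 of the 398, the 3 NaCl libraries did not overlap the 3 control libraries in either tissue, against 19.2% of all genes tested. Tests on the same libraries chose these genes, which favours such separation, so these counts are a description. The split depended on the scaling of the libraries: with library size as the only scaling there were 590 and 506 such genes, and 580 genes kept their opposite call. That scaling moved the median salt change of all genes to 0.26 in root and 0.32 in leaf. The totals were also lower without control root replicate 2 (672) or NaCl root replicate 2 (704). Of the 1114 genes, 989 had enough reads in each tissue alone. The others did not, so a few reads can set their log2 change in a tissue. TraesCS6D02G245800, TraesCS2B02G047400 and the newly assembled NB-ARC gene, all described below, are among those others.

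The opposite changes with the largest fitted positive differences included a peroxidase, an alternative oxidase, a chalcone isomerase, members of the MYB family and a WAT1-related transporter. Peroxidase TraesCS2A02G573900 (chr2A:769144844-769146212 of the Chinese Spring assembly), one of the secreted enzymes that oxidise phenolics with hydrogen peroxide in the cell wall, had 120, 106 and 99.2 CPM in NaCl roots against 22.1, 17.5 and 20.7 in control roots, and 0.0683, 0.138 and 0.0676 CPM in NaCl leaves against 1.83, 0.655 and 0.978 in control leaves. It was thus a root gene that salt raised further, and its low leaf level fell, with no overlap in either tissue. The difference was 6.02 ± 0.50 (SE, edgeR adjusted p = 6.39e-05).

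MYB protein TraesCS3B02G612200 (chr3B:829541136-829542635) and MYB13 transcription factor TraesCS3A02G535100 (chr3A:746633408-746634658) are DNA-binding regulators of the MYB family. TraesCS3B02G612200 had 155, 173 and 172 CPM in NaCl roots against 52, 36 and 36.4 in control roots, and 2.43, 0.757 and 1.66 CPM in NaCl leaves against 10.6, 22.9 and 6.19 in control leaves. Its difference was 5.04 ± 0.62 (edgeR adjusted p = 0.00055). TraesCS3A02G535100 had 161, 208 and 210 CPM in NaCl roots against 72.7, 52 and 47.9 in control roots, and 2.49, 1.07 and 1.28 CPM in NaCl leaves against 4.72, 16.6 and 4.1 in control leaves, with a difference of 4.14 ± 0.67 (edgeR adjusted p = 0.00235). In both genes every NaCl root lay above every control root and every NaCl leaf below every control leaf.

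Chalcone-flavonone isomerase TraesCS5D02G489000 (chr5D:524334560-524335791), an enzyme of flavonoid synthesis, reversed the order of the tissues. It had 10.8, 15.5 and 14.3 CPM in NaCl roots against 1.58, 0.836 and 1.59 in control roots, and 9.29, 10.8 and 7.1 CPM in NaCl leaves against 24.4, 22.7 and 40.7 in control leaves. The gene was lower in root than in leaf without salt and, with salt, its root level reached or passed that of every leaf. The difference was 5.02 ± 0.41 (edgeR adjusted p = 6.39e-05).

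WAT1-related protein TraesCS7A02G169100 (chr7A:125712948-125715936) belongs to a family named after the Arabidopsis vacuolar auxin transporter WALLS ARE THIN 1. Its levels were 87.3, 65.6 and 63.1 CPM in NaCl roots against 31.2, 23.7 and 20.8 in control roots, and 0.239, 1.44 and 1.08 CPM in NaCl leaves against 6.99, 13.2 and 4.7 in control leaves. The difference was 4.68 ± 0.63 (edgeR adjusted p = 0.000874). Other genes of the same name on chromosomes 7D and 7B, TraesCS7D02G170200 and TraesCS7B02G073900, chosen after their values were seen, had differences of 4.11 ± 0.52 and 3.75 ± 0.56 with rises in root and falls in leaf. Of 95 WAT1-related genes tested, 16 had a higher and 2 a lower salt change in root.

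Ubiquinol oxidase TraesCS6D02G245800 (chr6D:348028901-348030843), an alternative oxidase that passes electrons to oxygen and bypasses part of the respiratory chain, was almost silent in roots. It had 0.147, 0.0768 and 0.105 CPM in NaCl roots (13 reads in all) and 0 in each control root, so the root level was at least 3.42-fold higher with NaCl and the fitted difference of this gene is no exact size. In leaves it had 43.1, 45.1 and 47 CPM with NaCl against 67.2, 68.9 and 61.2 in control leaves, a fall of 0.55 ± 0.14 on the log2 scale (edgeR adjusted p = 0.0183). Of 15 ubiquinol oxidase genes tested, 1 had a higher and 4 a lower salt change in root. TraesCS2D02G542600, chosen after its values were seen, had 7.19, 5.86 and 5.51 CPM in NaCl roots against 28.1, 38.3 and 51.1 in control roots, and 251, 274 and 270 CPM in NaCl leaves against 253, 253 and 220 in control leaves. The root groups of that gene lay far apart and the leaf change did not pass its own test (difference -2.79 ± 0.29, edgeR adjusted p = 0.00021).

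Genes that fell in root and rose in leaf included chaperones, a predicted resistance protein, an acid phosphatase and a glycosyltransferase. Heat shock protein 90 gene TraesCS2B02G047400 (chr2B:23580386-23583637), a chaperone that folds signalling proteins, had 3.02, 2.92 and 2.66 CPM in NaCl roots against 46, 43.1 and 26 in control roots, and 0.41, 0.344 and 0.812 CPM in NaCl leaves against 0.0482, 0.131 and 0.0466 in control leaves. The root fall was large and the leaf rise took place at under 1 CPM (difference -6.45 ± 0.59, edgeR adjusted p = 0.000107).

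Peptidylprolyl isomerases TraesCS2D02G276000 (chr2D:345623668-345627156) and TraesCS2A02G277100 (chr2A:458050841-458054214), which speed up the turning of proline bonds in folding proteins, are alike in name and chromosome group. TraesCS2D02G276000 had 26.4, 42.5 and 36.1 CPM in NaCl roots against 203, 249 and 217 in control roots, and 5.88, 4.85 and 6.66 CPM in NaCl leaves against 1.35, 2.31 and 1.49 in control leaves. TraesCS2A02G277100 had 9.33, 13.5 and 11.8 CPM in NaCl roots against 67.1, 77.2 and 70.3 in control roots, and 2.84, 1.44 and 3.04 CPM in NaCl leaves against 1.3, 1.05 and 0.698 in control leaves. In both, the root level fell by more than the leaf level rose, with differences of -4.42 ± 0.33 (edgeR adjusted p = 6.39e-05) and -3.90 ± 0.38 (edgeR adjusted p = 0.00015).

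Purple acid phosphatase TraesCS4D02G343000 (chr4D:499302457-499306257), an enzyme of a family that releases phosphate from organic compounds, had 9.82, 13.7 and 24.3 CPM in NaCl roots against 53.6, 66.4 and 59 in control roots. In leaves the NaCl libraries had 716, 770 and 775 CPM and the control libraries 258, 29.9 and 109. The NaCl leaves were close to each other and the control leaves spread widely, with no overlap (difference -4.42 ± 0.79, edgeR adjusted p = 0.00426). Glycosyltransferase TraesCS5B02G436500 (chr5B:610280299-610282595), which attaches a sugar to an acceptor that the annotation does not name, had 2.06, 1.36 and 1.69 CPM in NaCl roots against 9.61, 9.53 and 10.3 in control roots, and 25, 28.1 and 22.5 CPM in NaCl leaves against 13.1, 12.8 and 7.26 in control leaves. Its tissue gap, already in favour of leaf, became wider with salt (difference -3.71 ± 0.31, edgeR adjusted p = 6.77e-05). A newly assembled gene with an NB-ARC domain, the nucleotide-binding part of many plant immune receptors (chr7B:23933027-23938127), had 10.8, 10.3 and 16 CPM in NaCl roots against 31.6, 40.6 and 49.1 in control roots (difference -6.04 ± 0.91, edgeR adjusted p = 0.00159). Its leaf counts were 34 reads with NaCl and 1 read in controls, a ratio of 25.2 with an exact 95% counting interval of 4.23 to 1020.

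**Figure D2:**
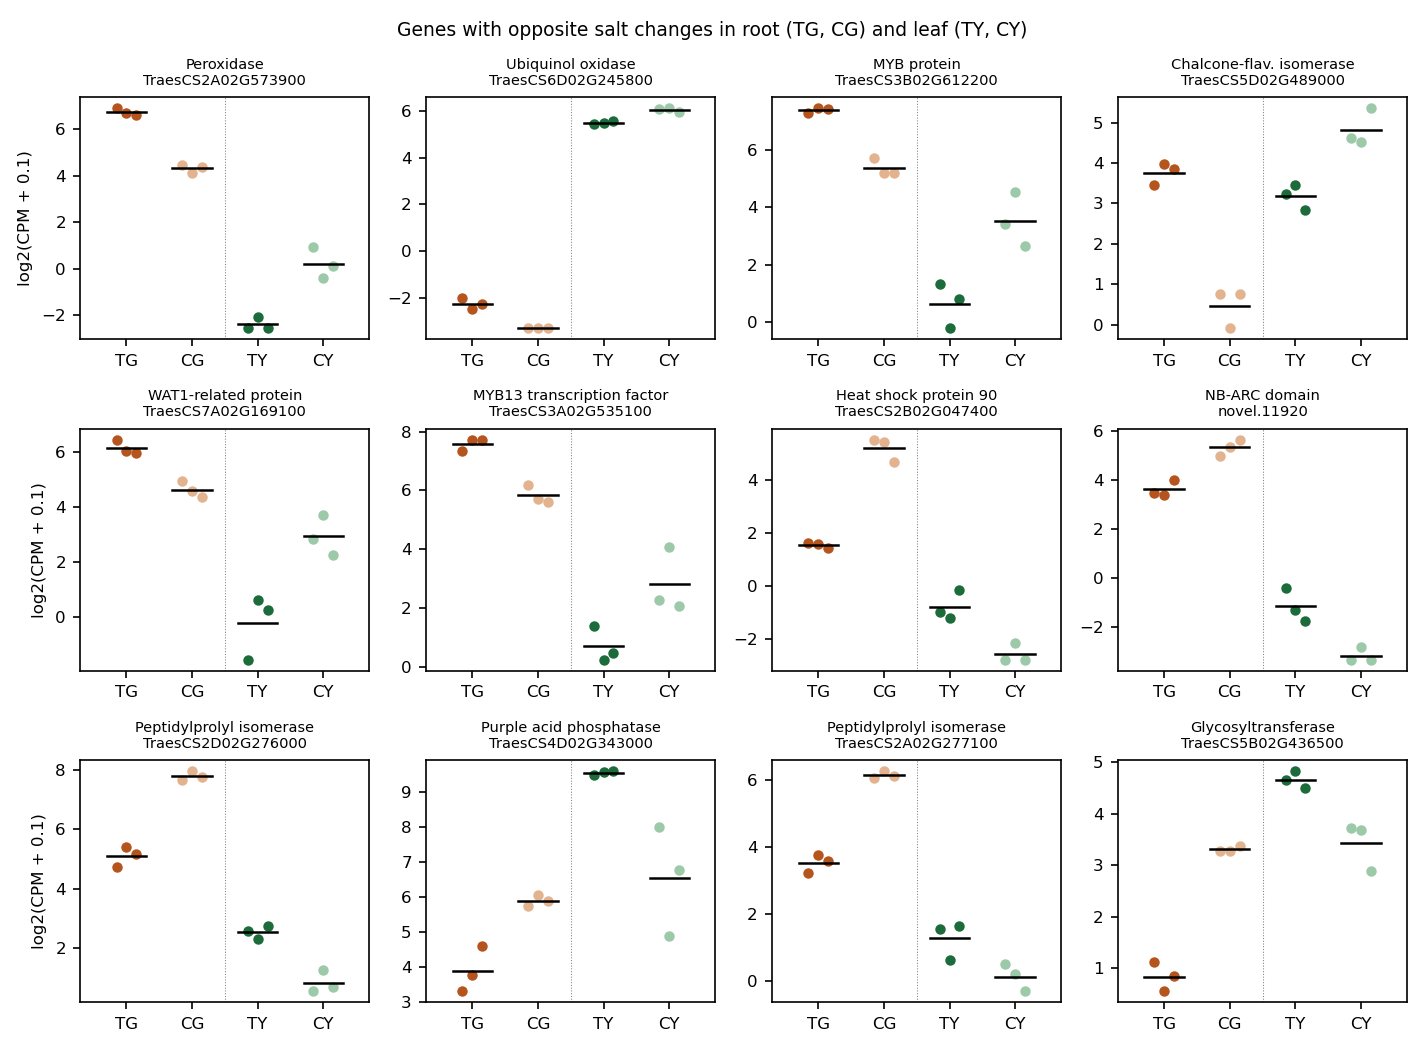
Levels of the 12 genes of opposite direction in every library, as log2(CPM + 0.1) on the y axis, for NaCl roots (TG), control roots (CG), NaCl leaves (TY) and control leaves (CY), with points for libraries and bars for group means. In the panels from the peroxidase to MYB13, TG lies above CG and TY below CY, and in the panels from heat shock protein 90 to the glycosyltransferase the order is turned round in both tissues.

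Groups of genes with a common function were then counted against the 6.17% of all genes tested that had a higher and the 4.91% that had a lower salt change in root. The groups were set by the gene descriptions and protein domains of the annotation. The balance of higher and lower calls given below was of the same sign with the RLE factors, library size alone and TMM factors within each tissue, for the groups named with a clear majority. The ranges given for a group are those found when any 1 library was left out, and in several groups they were lowest without control root replicate 2 or NaCl root replicate 2. Genes given by group averages alone, and further copies of a named gene, were chosen after their values were seen.

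**Figure D3:**
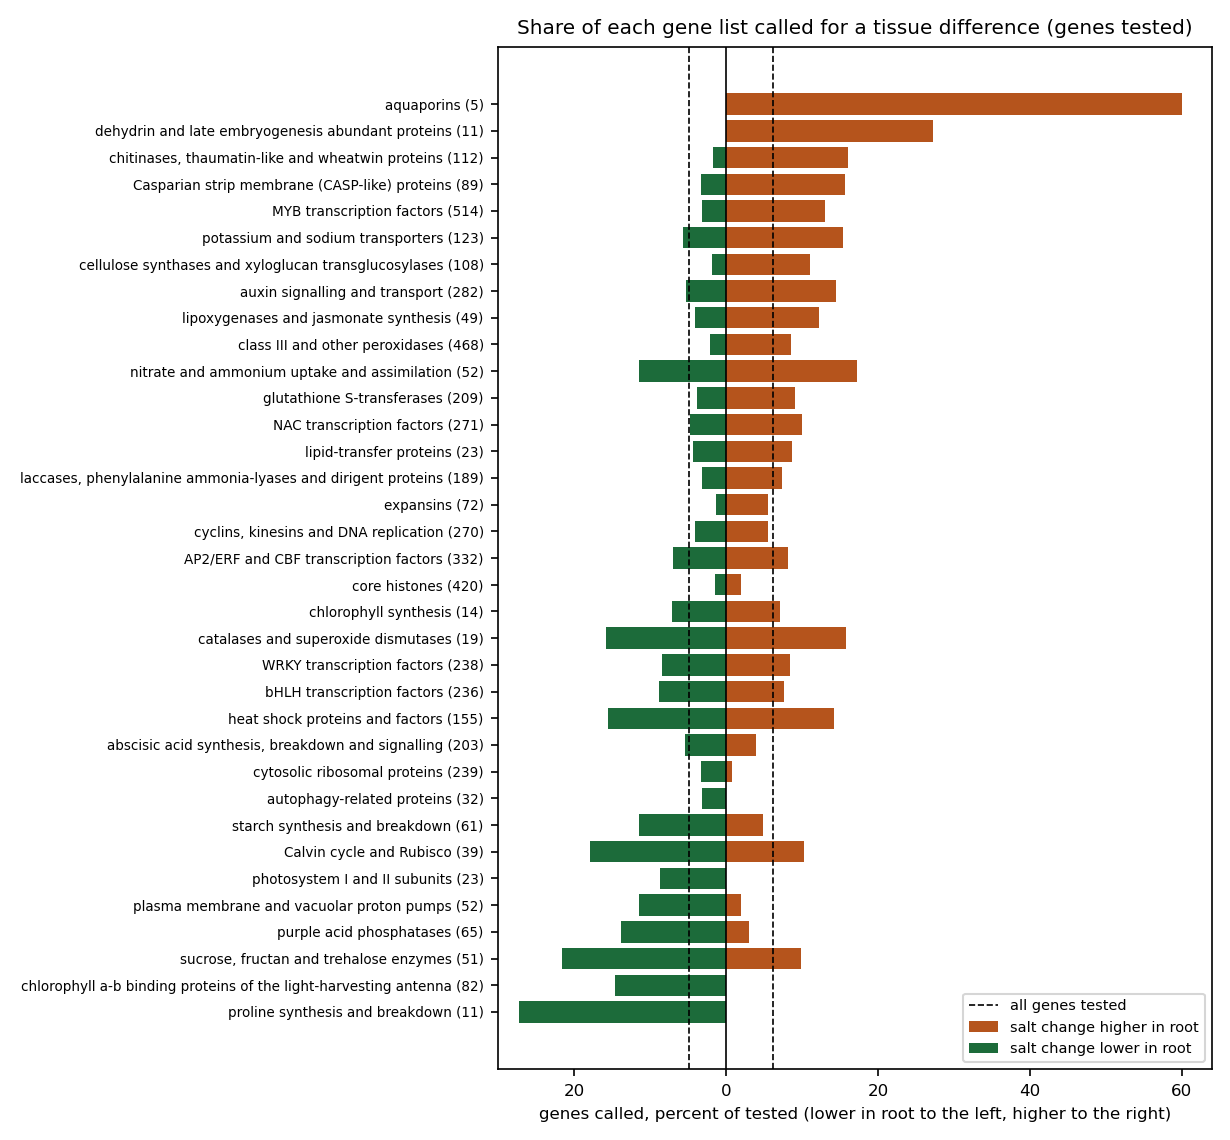
Percent of each gene group with a called tissue difference, with the salt change lower in root to the left and higher in root to the right, and the number of genes tested in brackets. Dashed lines mark 4.91% and 6.17%, the shares over all genes tested. Aquaporins (60% of only 5 genes so described), dehydrins (27.3%) and the chitinase, thaumatin-like and wheatwin group (16.1%) reach far to the right, while proline metabolism (27.3%), sucrose, fructan and trehalose enzymes (21.6%) and Calvin cycle genes (17.9%) reach far to the left.

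All 5 genes that the annotation describes as aquaporins fell in leaf, against 12.1% of all genes tested, and none was called in root. Genes without that description were not counted, so this is not a count of all water channels. Of 5 aquaporin genes tested, which form pores for water in membranes, 3 had a higher salt change in root (1 to 4 without 1 library), and all 3 of these fell in leaf with no call in root. Aquaporin TraesCS6A02G405600 had 140, 135 and 149 CPM in NaCl roots against 122, 169 and 138 in control roots, and 25, 25.3 and 29.6 CPM in NaCl leaves against 83, 69.9 and 78 in control leaves. The root libraries overlapped and the leaf libraries were clearly apart (difference 1.51 ± 0.22, edgeR adjusted p = 0.00138). Aquaporin TraesCS6B02G450000 showed the same shape at a higher level, with 79.5 CPM in NaCl leaves against 174 in control leaves and a difference of 0.98 ± 0.25 (edgeR adjusted p = 0.0248), a call that was lost without control root replicate 3 or NaCl leaf replicate 3. The summed level of the 5 genes was 740 ± 86.2 CPM (SD) in NaCl roots and 787 ± 88.4 in control roots, against 212 ± 12.1 in NaCl leaves and 435 ± 18.6 in control leaves.

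Ion transporters were called above the share of all genes, at 21.1%. Of 123 potassium and sodium transporter genes tested, 19 had a higher and 7 a lower salt change in root (14 to 19 and 6 to 9 without 1 library), and 16 of the 26 rose in root. Leading the group was a gene with a sodium/proton exchanger domain, TraesCS1A02G037400, of a family that moves sodium out of the cell or into the vacuole in exchange for protons. It had 2.53, 1.48 and 1.92 CPM in NaCl roots against 0.0573, 0.0669 and 0 in control roots, and 14.7, 18 and 16.1 CPM in NaCl leaves against 28.4, 21.1 and 29.9 in control leaves. Salt thus brought it up from near zero in root and lowered it in leaf (difference 6.10 ± 0.50, edgeR adjusted p = 6.39e-05). The genes TraesCS1B02G047900 and TraesCS1D02G039000 with the same domain had differences of 5.40 ± 0.46 and 3.66 ± 0.33, with rises in root and no call in leaf.

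Potassium transporters divided. Among 63 genes of that name, 14 had a higher and 6 a lower salt change in root. TraesCS5A02G233200 averaged 7.81 CPM in NaCl roots and 1.08 in control roots, and 4.06 CPM in NaCl leaves and 7.34 in control leaves (difference 3.71 ± 0.35, edgeR adjusted p = 0.000126). TraesCS2B02G135900 went the other way, with 29.8, 36.3 and 45.1 CPM in NaCl roots against 69.8, 86.6 and 90 in control roots, and 29.1, 34.6 and 30.1 CPM in NaCl leaves against 18.5, 21.5 and 23.8 in control leaves (difference -1.70 ± 0.25, edgeR adjusted p = 0.00144). An AKT1-like potassium channel, TraesCS3A02G233800, a kind of inward channel for potassium uptake in Arabidopsis roots, averaged 14 CPM in NaCl roots and 74.5 in control roots, and 6.65 CPM in NaCl leaves and 6.94 in control leaves (difference -2.34 ± 0.38, edgeR adjusted p = 0.00242).

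Plasma membrane proton pumps build the gradient that drives many of these transporters. Of 17 plasma membrane ATPase genes tested, 6 had a lower and none a higher salt change in root (5 to 6 and 0 to 1 without 1 library). TraesCS2A02G502400 had 386, 433 and 473 CPM in NaCl roots against 836, 960 and 1120 in control roots, and 998, 845 and 799 CPM in NaCl leaves against 598, 669 and 723 in control leaves. Its order between the tissues turned round, since root was above leaf without salt and below it with salt (difference -1.58 ± 0.26, edgeR adjusted p = 0.00269), although the leaf change alone did not pass (0.41 ± 0.18, edgeR adjusted p = 0.132). TraesCS2B02G530500 behaved alike, with a difference of -1.62 ± 0.30 (edgeR adjusted p = 0.00491).

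The calls among enzymes of sugar metabolism were more often for a lower salt change in root. Of 51 sucrose, fructan and trehalose genes tested, 5 had a higher and 11 a lower salt change in root (2 to 7 and 7 to 12 without 1 library), and 10 of the 16 fell in root. Trehalose 6-phosphate phosphatases, which remove the phosphate from the sugar signal trehalose 6-phosphate, gave 6 of the 11 and 2 of the 5 higher calls. These 22 genes tested gave 6 lower and 2 higher calls, but 5 and 4 without control leaf replicate 2. TraesCS5D02G200800 had 38.5, 27.2 and 21.8 CPM in NaCl roots against 130, 173 and 204 in control roots, while its leaf libraries overlapped at 159, 214 and 132 CPM with NaCl and 128, 174 and 154 in controls (difference -2.69 ± 0.36, edgeR adjusted p = 0.000874). TraesCS5B02G193100 fell in root by 2.89 ± 0.26 with no call in leaf (difference -2.53 ± 0.35, edgeR adjusted p = 0.001).

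Sucrose synthase, which splits sucrose for use in growing tissue, was the most abundant of these enzymes in root. TraesCS7D02G159800, chosen after its values were seen, had 987, 1250 and 1220 CPM in NaCl roots against 2280, 3200 and 2660 in control roots, and 50.9, 47.7 and 52.6 CPM in NaCl leaves against 22.1, 40.2 and 34 in control leaves. The root groups did not overlap, and the leaf change did not pass its own test (difference -1.88 ± 0.33, edgeR adjusted p = 0.00383). Sucrose:sucrose 1-fructosyltransferase TraesCS7D02G008700, which starts fructan synthesis, averaged 46.3 CPM in NaCl roots and 24.9 in control roots, and 9.35 CPM in NaCl leaves and 54 in control leaves (difference 3.42 ± 0.69, edgeR adjusted p = 0.00803). Its leaf fall passed the test and its root change did not.

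Opposite changes in starch genes were found among beta-amylases. Of 61 starch genes tested, 3 had a higher and 7 a lower salt change in root, and 4 genes, all beta-amylases, which release maltose from starch, fell in root and rose in leaf. TraesCS3B02G190600 had 3.58, 3.22 and 3.16 CPM in NaCl roots against 5.45, 6.18 and 6.52 in control roots, and 51.6, 59.4 and 48.4 CPM in NaCl leaves against 23.8, 28.3 and 26.1 in control leaves (difference -1.89 ± 0.20, edgeR adjusted p = 0.000209). TraesCS1B02G229000 had 6.63, 4.07 and 3.37 CPM in NaCl roots against 9.23, 12.9 and 11.1 in control roots, and 95.5, 118 and 175 CPM in NaCl leaves against 20, 44.1 and 49.4 in control leaves (difference -3.01 ± 0.49, edgeR adjusted p = 0.00247). The groups of both genes were fully separated in each tissue. The number of opposite starch genes was 1 to 3 without 1 library.

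Nitrogen genes split by enzyme. Of 52 genes tested, 9 had a higher and 6 a lower salt change in root (6 to 9 and 3 to 8 without 1 library), but 4 of the 9 are folylpolyglutamate synthases, which belong to folate metabolism and were taken in by their name. The other 5 were 4 nitrate reductases, the first enzyme of nitrate assimilation, and a glutamine synthetase. Nitrate reductase TraesCS6A02G326200, chosen after its values were seen, had 14, 15.4 and 21.5 CPM in NaCl roots against 9.61, 6.62 and 5.85 in control roots, and 2.77, 3.68 and 1.22 CPM in NaCl leaves against 13.7, 5.72 and 8.85 in control leaves (difference 3.08 ± 0.53, edgeR adjusted p = 0.0035). A newly assembled glutamine synthetase gene (chr6D:386290638-386294447), which builds ammonium into glutamine, had 290, 280 and 275 CPM in NaCl roots against 151, 138 and 157 in control roots, and 60.2, 69.4 and 76.5 CPM in NaCl leaves against 87, 124 and 121 in control leaves (difference 1.61 ± 0.24, edgeR adjusted p = 0.00139). Both genes rose in root and fell in leaf.

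Glutamate dehydrogenase, which releases ammonium from glutamate, had a lower salt change in root in 3 of 6 genes tested. TraesCS2B02G409300 had 11.6, 13.9 and 15.3 CPM in NaCl roots against 12.4, 15.5 and 16.1 in control roots, and 24.4, 12.2 and 21.9 CPM in NaCl leaves against 5.16, 4.67 and 4.75 in control leaves (difference -2.11 ± 0.32, edgeR adjusted p = 0.00168). The genes of the same name on chromosomes 2A and 2D, TraesCS2A02G389900 and TraesCS2D02G388800, each had a difference of -2.10, with SE of 0.36 and 0.34. None of the 3 was called in root. The ammonium transporter TraesCS2A02G365000 fell in root, with 33.2 CPM in NaCl roots and 101 in control roots, against 11.6 CPM in NaCl leaves and 13.3 in control leaves (difference -1.40 ± 0.39, edgeR adjusted p = 0.0348).

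Proline, a compatible solute that plants store under salt, is made through delta-1-pyrroline-5-carboxylate synthase and broken down by proline dehydrogenase. Of 11 genes tested, none had a higher and 3 a lower salt change in root (1 to 4 without 1 library). The lower count was 1 without control leaf replicate 2. Synthase TraesCS1B02G290600 had 24.4, 28.8 and 32.9 CPM in NaCl roots against 28.6, 32.9 and 36.4 in control roots, and 25.8, 19.1 and 23.3 CPM in NaCl leaves against 7.71, 9.3 and 9.22 in control leaves. It rose in leaf and was not called in root (difference -1.56 ± 0.23, edgeR adjusted p = 0.00158). Proline dehydrogenase TraesCS1D02G212400 fell in both tissues, with 20.6, 9.11 and 8.91 CPM in NaCl roots against 105, 124 and 177 in control roots, and 124, 154 and 123 CPM in NaCl leaves against 520, 496 and 442 in control leaves. Its larger fall in root (difference -1.53 ± 0.43, edgeR adjusted p = 0.0365) lost its call when any of 10 libraries was left out, among them control leaf replicate 2 (adjusted p = 0.0615).

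Dehydrins and late embryogenesis abundant proteins, which protect membranes and proteins as cells dry, gave 3 genes with a higher salt change in root and none with a lower one, of 11 tested. Cold induced protein TraesCS3B02G175900 had 72.7, 68.9 and 59.4 CPM in NaCl roots against 14.7, 18.2 and 24.7 in control roots, and 288, 244 and 311 CPM in NaCl leaves against 483, 440 and 495 in control leaves (difference 2.56 ± 0.28, edgeR adjusted p = 0.000269). Dehydrin TraesCS7D02G549900 had 4.39, 2.58 and 1.53 CPM in NaCl roots against 0.745, 0.435 and 0.957 in control roots, with overlapping leaf values (difference 2.44 ± 0.52, edgeR adjusted p = 0.011). Both were higher in leaf than in root with and without salt, and the gap became smaller with salt. The third gene, a newly assembled late embryogenesis abundant gene, averaged 24 CPM in NaCl roots and 67 in control roots, and 0.251 CPM in NaCl leaves and 5.46 in control leaves, so it fell in both tissues and further in leaf. The summed level of the group was 195 ± 42.7 CPM (SD) in NaCl roots and 540 ± 95.4 in control roots, against 1670 ± 254 in NaCl leaves and 2380 ± 352 in control leaves.

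Among defence genes of the pathogenesis-related kind, 46 of 112 chitinase, thaumatin-like, pathogenesis-related and wheatwin genes tested rose in root and 3 rose in leaf. Over all genes tested, 14.2% rose in root and 10.4% in leaf. Only 48 of the 112 had enough reads in each tissue alone. The others had few reads in a tissue, which limits the counts of 46 and 3. Fitting only genes with enough reads in each tissue gave 19 higher and 2 lower of the 48. Of all 112, 18 had a higher and 2 a lower salt change in root, and 16 of the 20 rose in root while 1 rose in leaf. Their summed level was 2040, 1870 and 1770 CPM in NaCl roots against 981, 903 and 1080 in control roots, and 621, 589 and 480 CPM in NaCl leaves against 359, 512 and 493 in control leaves. The root sums were fully separated and the leaf sums overlapped. The count was 12 and 2 without control leaf replicate 2, 9 and 1 without control root replicate 2, and 10 and 1 without control root replicate 1 or 3 or NaCl root replicate 2.

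Wheatwin-2, TraesCS3D02G524700 (chr3D:604447774-604448529), a wheat protein of the PR-4 family with activity against fungi, had 28.4, 24.1 and 12.8 CPM in NaCl roots against 0, 0.0334 and 0 in control roots, and 19.1, 8.56 and 6.29 CPM in NaCl leaves against 2.46, 5.02 and 1.21 in control leaves. With 2582 reads in NaCl roots and 1 in control roots, the root ratio was 2030 with an exact 95% counting interval of 365 to 80400. The leaf rise was 1.96 ± 0.50, so both tissues rose and the root by far more (difference 8.56 ± 1.22, edgeR adjusted p = 0.00119).

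Pathogenesis-related protein 1-1, TraesCS5B02G181500, one of the genes in which the order of the tissues turned round and named after its values were seen, had 41.7, 45.8 and 27.7 CPM in NaCl roots against 0.0287, 0.167 and 0 in control roots. In leaves it had 4.75, 3.78 and 0.981 CPM with NaCl against 0.289, 6.86 and 0 in controls. The high control leaf is replicate 2, and without it the difference was 4.75 in place of 8.74 and was no longer called (edgeR adjusted p = 0.146). Pathogenesis-related protein 1-4, TraesCS7D02G161200, had 68.6, 68.3 and 46.4 CPM in NaCl roots against 0.344, 0.669 and 0.106 in control roots, and 3.04, 3.3 and 0.44 CPM in NaCl leaves against 0.0482, 12.4 and 0 in control leaves. Its difference of 8.23 ± 1.81 was 1.04 without control leaf replicate 2 (edgeR adjusted p = 0.986). Chitinase TraesCS3D02G260300, which cuts the chitin of fungal walls, kept its call without that library, with a difference of 3.60 in place of 6.04.

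**Figure D4:**
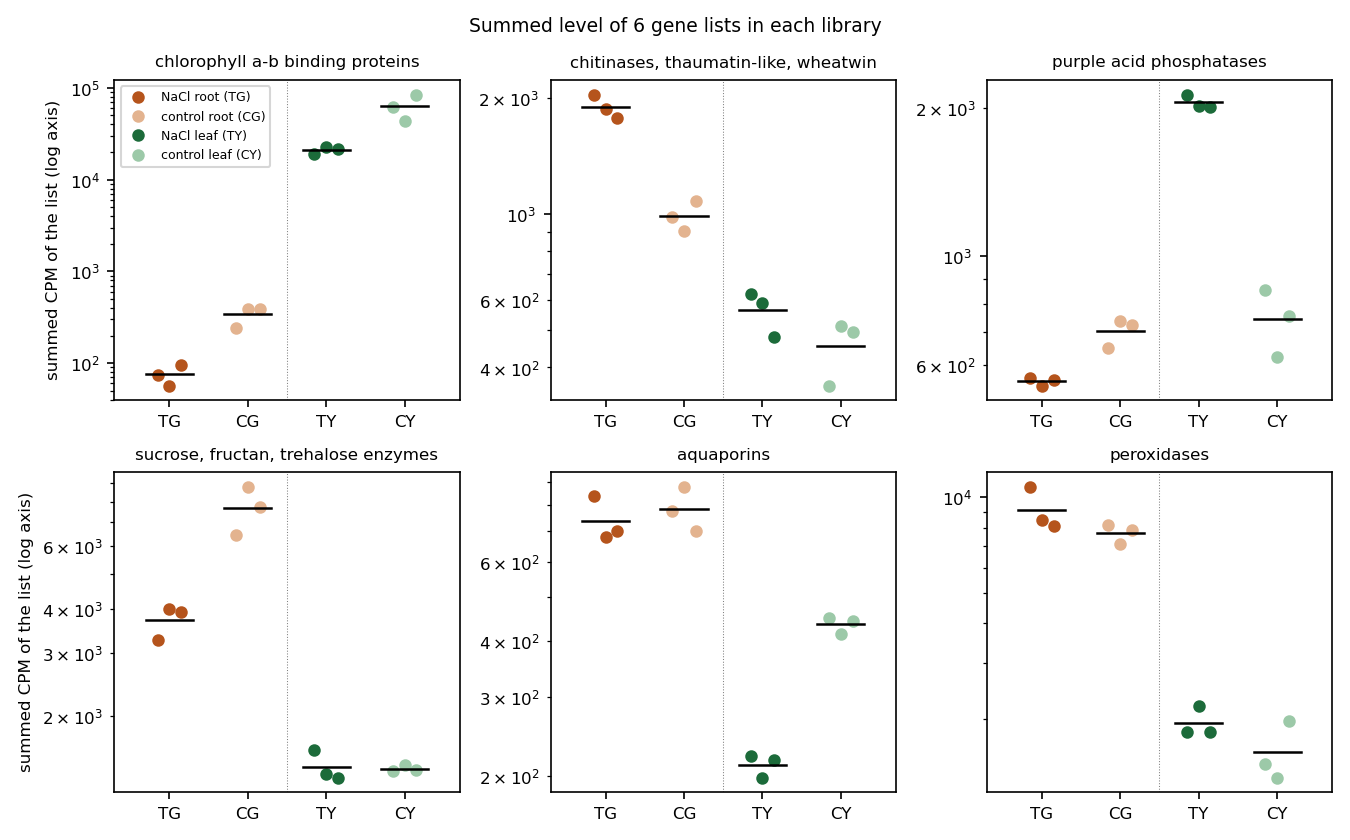
Summed level of 6 gene groups in each library, in CPM on a log axis, for NaCl roots (TG), control roots (CG), NaCl leaves (TY) and control leaves (CY), with bars at the group means. The chitinase group is higher with NaCl in root (1770 to 2040 against 903 to 1080 CPM) and overlaps in leaf, purple acid phosphatases rise in leaf (2010 to 2130 against 622 to 853 CPM) and aquaporins fall in leaf (198 to 221 against 414 to 449 CPM).

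Among cell wall and barrier genes, the edgeR calls were more often for a higher salt change in root. Of 468 peroxidase genes tested, 40 had a higher and 10 a lower salt change in root (28 to 41 and 4 to 17 without 1 library), 9 of them rose in root and fell in leaf, and none did the reverse. The share of the family with any call, 10.7%, was close to that of all genes, and limma on log2(FPKM + 1) gave 100 higher and 114 lower. Only 120 of the 468 had enough reads in each tissue alone, against 57368 of all 79339 genes. Fitting only such genes gave 34 higher and 9 lower of the 120, against 9533 calls among the 57368. The share called thus depended on this filter. The median difference was -0.30 over the 468 genes and 0.695 over those 120, so its sign depended on the genes with few reads in a tissue. By the test within root, 111 of the 468 rose and 142 fell, against 14.2% and 15% of all genes tested. Peroxidase TraesCS1A02G108400 had 31.8, 36.6 and 32.9 CPM in NaCl roots against 7.17, 9.36 and 7.44 in control roots, and 1.64, 1.62 and 1.72 CPM in NaCl leaves against 2.7, 2.66 and 3.54 in control leaves (difference 2.91 ± 0.23, edgeR adjusted p = 6.39e-05). Peroxidase TraesCS1A02G104200 rose in both tissues, with 91.2, 86.2 and 61.6 CPM in NaCl roots against 0.831, 0.936 and 1.59 in control roots, and 1.81, 2.13 and 2.57 CPM in NaCl leaves against 0.385, 0.393 and 0 in control leaves. Its larger rise in root (difference 3.12 ± 0.74, edgeR adjusted p = 0.018) lost its call without control leaf replicate 1 or 2.

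CASP-like proteins, relatives of the proteins that place the Casparian strip of the root endodermis in Arabidopsis, gave 14 genes with a higher and 3 with a lower salt change in root, of 89 tested (10 to 12 and 1 to 7 without 1 library). TraesCS1D02G392000 had 14.2, 11.7 and 7.09 CPM in NaCl roots against 0.516, 0.501 and 0.78 in control roots, while its leaf values overlapped at 13.2, 8.36 and 8.39 CPM with NaCl and 10.1, 16.3 and 4.33 in controls (difference 4.24 ± 0.62, edgeR adjusted p = 0.00132). Cellulose synthases and xyloglucan transglucosylases, which make and cut wall polymers, gave 12 and 2 of 108 genes (5 higher without control root replicate 2 and 17 without control leaf replicate 2).

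In phenylpropanoid metabolism, which feeds lignin, 14 genes had a higher and 6 a lower salt change in root, of 189 laccase, phenylalanine ammonia-lyase and dirigent genes tested (11 to 15 and 1 to 10 without 1 library, the 1 without NaCl root replicate 2 and the 10 without NaCl root replicate 1). The share called, 10.6%, was close to that of all genes, but only 52 of the 189 had enough reads in each tissue alone. Fitting only such genes gave 11 higher and 6 lower of the 52, against 9533 calls among 57368 genes. Of 47 laccases, which couple lignin units, 4 were called, all higher in root, and 3 of these rose in root and fell in leaf. Laccase TraesCS3B02G392700 averaged 8.51 CPM in NaCl roots and 1.48 in control roots, and 0.432 CPM in NaCl leaves and 2.16 in control leaves (difference 4.84 ± 0.63, edgeR adjusted p = 0.000767). Phenylalanine ammonia-lyase TraesCS2A02G381000, the entry enzyme of the pathway, had 49.1, 46.9 and 52.3 CPM in NaCl roots against 17.6, 14.7 and 27.5 in control roots, and 1.37, 2.03 and 1.05 CPM in NaCl leaves against 3.47, 2.05 and 4.56 in control leaves (difference 2.49 ± 0.43, edgeR adjusted p = 0.00361). The abundant lyase TraesCS6B02G258500 fell in leaf by 1.37 ± 0.22 with no call in root (difference 1.74 ± 0.31, edgeR adjusted p = 0.00404).

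Enzymes against reactive oxygen went both ways. Of 19 catalase and superoxide dismutase genes tested, 3 had a higher and 3 a lower salt change in root (0 to 3 and 3 without 1 library). Catalase TraesCS6D02G048300, which breaks down hydrogen peroxide, rose in both tissues, with 112, 187 and 119 CPM in NaCl roots against 1.26, 0.702 and 1.35 in control roots, and 101, 170 and 136 CPM in NaCl leaves against 2.75, 41.4 and 5.59 in control leaves. Root and leaf reached overlapping levels with salt, and control leaf replicate 2 again lay above the other controls. Its difference of 3.94 ± 1.05 (edgeR adjusted p = 0.0305) was 2.02 without that library, still called, and it lost its call when any of 6 other libraries was left out. Catalase TraesCS4B02G325800 had 0.172, 0.0512 and 0.0791 CPM in NaCl roots against 1.15, 2.27 and 0.957 in control roots, and 831, 597 and 618 CPM in NaCl leaves against 952, 834 and 901 in control leaves, where its change was not called (difference -3.39 ± 0.54). With limma on log2(FPKM + 1) the difference was -0.25 and was not called (adjusted p = 0.468). Only 90 of 209 glutathione S-transferases had enough reads in each tissue alone. Fitting only such genes gave 20 higher and 8 lower of the 90, against 9533 calls among 57368 genes. Of all 209, 19 had a higher and 8 a lower salt change in root, and the 12.9% called was close to that of all genes. The counts were 13 to 21 and 3 to 10 without 1 library, with 13 higher without control root replicate 2 and 3 lower without control root replicate 3, control leaf replicate 1 or NaCl root replicate 2.

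Many photosynthesis genes fell with salt, in root from a very low level. By the test, 53 of 82 chlorophyll a-b binding genes, 5 of 23 photosystem genes and 16 of 39 Calvin cycle genes fell in root, where 2 Calvin cycle genes rose, and 72, 14 and 28 fell in leaf. Over all genes tested, 15% fell in root and 12.1% in leaf. Of the 82 chlorophyll a-b binding genes tested, which hold the pigments of the light-harvesting antenna, none had a higher and 12 a lower salt change in root, and all 12 fell in root while 9 of them also fell in leaf. Their summed level was 75.5 ± 19.6 CPM (SD) in NaCl roots and 341 ± 85.3 in control roots, against 21200 ± 2030 in NaCl leaves and 63300 ± 20300 in control leaves. Counted in CPM, the fall in leaf was far the larger. With limma on log2(FPKM + 1), which damps changes at low levels, 42 antenna genes had a higher and 7 a lower salt change in root, so the direction for this group depends on the scale.

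TraesCS5D02G357600, a chlorophyll a-b binding gene, had 0.0246, 0.102 and 0.158 CPM in NaCl roots against 3.35, 4.71 and 8.04 in control roots, and 983, 1040 and 1030 CPM in NaCl leaves against 2040, 1490 and 3030 in control leaves (difference -4.67 ± 0.64, edgeR adjusted p = 0.000947). Among 39 Calvin cycle genes, 4 had a higher and 7 a lower salt change in root, against 21 and 0 with limma on log2(FPKM + 1). Rubisco small subunit gene TraesCS2B02G079300 had 0 CPM in each NaCl root against 0.43, 1.54 and 0.532 in control roots, so its root level was at least 32.1-fold lower, and 382, 501 and 409 CPM in NaCl leaves against 1520, 972 and 2130 in control leaves. The call of this gene (edgeR adjusted p = 0.0289) was lost when any of 5 libraries was left out and with a replicate block (edgeR adjusted p = 0.053). Glyceraldehyde-3-phosphate dehydrogenase TraesCS4D02G319400 had 1 read in NaCl roots and 233 in control roots, a ratio of 0.00338 with an exact 95% counting interval of 8.52e-05 to 0.019, and 843, 992 and 798 CPM in NaCl leaves against 2090, 1570 and 3050 in control leaves. Ribulose-phosphate 3-epimerase TraesCS4D02G283800 is 1 of 3 epimerases with a higher salt change in root, rising in root to 9.85, 9.93 and 11.4 CPM, against 5.88, 6.08 and 6.98 in control roots, and falling in leaf to 305, 301 and 286 CPM, against 510, 368 and 561 in control leaves (difference 1.41 ± 0.25, edgeR adjusted p = 0.004).

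Purple acid phosphatases leaned to leaf. Of 65 tested, 2 had a higher and 9 a lower salt change in root (2 to 6 and 7 to 10 without 1 library). Their summed level was 565, 545 and 559 CPM in NaCl roots against 650, 736 and 723 in control roots, and 2130, 2020 and 2010 CPM in NaCl leaves against 853, 622 and 756 in control leaves. Most of the leaf sum with NaCl came from TraesCS4D02G343000, described above, and TraesCS4B02G348600, which averaged 730 CPM in NaCl leaves and 43.4 in control leaves and stayed at 1.08 CPM in NaCl roots and 1.12 in control roots (difference -4.13 ± 0.74, edgeR adjusted p = 0.0042). TraesCS4D02G231400 rose in leaf by 1.49 ± 0.17 with no call in root.

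Among hormone genes, 41 auxin signalling and transport genes had a higher and 15 a lower salt change in root, of 282 tested (26 to 44 and 10 to 18 without 1 library), and 29 of the 56 fell in leaf. TraesCS1D02G177000 has an auxin-inducible domain of the small SAUR kind and had 36.7, 23.6 and 22.3 CPM in NaCl roots against 14.8, 10.5 and 16.9 in control roots, and 6.08, 7.43 and 7.03 CPM in NaCl leaves against 38, 27.3 and 38.2 in control leaves (difference 3.30 ± 0.33, edgeR adjusted p = 0.000163). TraesCS1A02G178700, of the same domain, had a difference of 3.19 ± 0.33. Of 20 auxin efflux carriers, which export auxin from cells, 6 had a higher and none a lower salt change in root. One of them, TraesCS6D02G287800, chosen after its values were seen, had 21.6, 14.1 and 13.1 CPM in NaCl roots against 8.17, 6.72 and 7.09 in control roots, and 6.49, 11.7 and 6.66 CPM in NaCl leaves against 18.2, 24.3 and 30.5 in control leaves.

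Lipoxygenases, the entry to jasmonate synthesis, gave 6 higher and 2 lower salt changes in root among 49 genes of the jasmonate group. TraesCS7D02G244800 averaged 12 CPM in NaCl roots and 0.631 in control roots, and 2.41 CPM in NaCl leaves and 6.71 in control leaves (difference 5.72 ± 0.49, edgeR adjusted p = 6.77e-05). TraesCS2B02G555400 had 0.712, 3.33 and 5.09 CPM in NaCl roots against 5.62, 8.39 and 9.82 in control roots, and 292, 391 and 309 CPM in NaCl leaves against 111, 12 and 49.9 in control leaves, with a call in leaf only (difference -3.91 ± 0.96, edgeR adjusted p = 0.0216). The call of its difference was lost without control root replicate 2 or 3 or NaCl root replicate 2. The summed level of the group was 875 ± 75.4 CPM (SD) in NaCl roots and 1450 ± 330 in control roots, against 4430 ± 556 in NaCl leaves and 1910 ± 788 in control leaves. In the abscisic acid group, 189 of 203 genes were taken in by a PP2C phosphatase domain alone. Only some PP2C phosphatases hold back abscisic acid signalling in Arabidopsis, so the counts describe PP2C genes in general. Of the 203, 8 had a higher and 11 a lower salt change in root. That balance turned to 16 and 10 without control leaf replicate 2 and was 11 and 18 without NaCl root replicate 1.

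Transcription factor families differed in their balance. MYB genes leaned to root, with 67 higher and 16 lower of 514 tested (49 to 79 and 9 to 24 without 1 library), and 19 of them rose in root and fell in leaf while none did the reverse. NAC genes leaned the same way, with 27 higher and 13 lower of 271, though the counts were 23 and 23 without NaCl root replicate 1. WRKY (20 and 20 of 238), AP2/ERF (27 and 23 of 332) and bHLH genes (18 and 21 of 236) had no clear side, and their lower counts ran over 7 to 37, 13 to 55 and 6 to 19 without 1 library, the highest for WRKY and AP2/ERF without NaCl root replicate 1. AP2/ERF genes had 35 higher and 17 lower without control leaf replicate 2. WRKY gene TraesCS5A02G225600 had 6.56, 6.32 and 8.06 CPM in NaCl roots against 0.229, 0 and 0.142 in control roots, and 17.3, 30.9 and 53.8 CPM in NaCl leaves against 87.1, 52 and 68.6 in control leaves (difference 6.75 ± 0.71, edgeR adjusted p = 0.000225). NAC gene TraesCS5A02G291200 had 11.4, 13.3 and 19 CPM in NaCl roots against 3.78, 3.44 and 4.61 in control roots, and 4.65, 9.35 and 10.6 CPM in NaCl leaves against 44.7, 30.5 and 22.4 in control leaves (difference 3.87 ± 0.46, edgeR adjusted p = 0.000409). The WRKY leaf change did not pass its own test, whereas the NAC gene rose in root and fell in leaf.

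Heat shock proteins and factors had calls in 29.7% of 155 genes, on both sides: 22 higher and 24 lower salt changes in root (14 to 21 and 14 to 24 without 1 library), with 9 genes up in root and down in leaf and 6 the reverse. Genes with an Hsp70 domain, chaperones that bind unfolded proteins, gave 29 of these calls among 71 tested that carry no other description, with 11 higher and 18 lower (9 to 12 and 9 to 17 without 1 library). TraesCS4B02G206700 had 66.7, 77.9 and 76 CPM in NaCl roots against 33.6, 35.9 and 34.3 in control roots, and 15.4, 14.8 and 8.45 CPM in NaCl leaves against 78.1, 82.4 and 106 in control leaves. The tissues changed places, leaf being above root without salt and root above leaf with it (difference 3.88 ± 0.30, edgeR adjusted p = 6.39e-05). TraesCS6A02G337100 had 111, 115 and 112 CPM in NaCl roots against 38.6, 32.2 and 44.3 in control roots, and 15.2, 17.6 and 14.3 CPM in NaCl leaves against 37.1, 36.8 and 31.9 in control leaves (difference 2.72 ± 0.22, edgeR adjusted p = 6.39e-05). On the other side, TraesCS4A02G098600, chosen after its values were seen, had 14.6, 34.1 and 21.6 CPM in NaCl roots against 49.4, 46.8 and 46.1 in control roots, and 1.78, 1.93 and 1.72 CPM in NaCl leaves against 0.0482, 0.0437 and 0.372 in control leaves (difference -4.54 ± 0.62, edgeR adjusted p = 0.000943).

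Other families with many calls were picked from all families of 8 or more tested genes after their counts were seen, so their counts are descriptions. Domain families hold the genes with that domain and no other description. Response regulator domain genes, the output of cytokinin signalling among others, had a tissue difference in 14 of 23 genes (60.9%), 13 of them higher in root, and 9 fell in leaf while 6 rose in root. Proteolytic subunits of the ATP-dependent Clp protease, which degrades proteins in chloroplasts and mitochondria, had one in 17 of 28 genes (60.7%), 16 lower in root, and all 16 of these rose in leaf with none called in root. Amino acid transporter domain genes were called in 57 of 158, with 41 higher and 16 lower in root. Caspase-like peptidase domain genes, a family whose plant members are called metacaspases, were called in 13 of 34, 12 of them higher in root. S-adenosylmethionine synthases, which make the methyl donor of the cell, were called in 7 of 11 genes, all 7 higher in root and all 7 up in root. Cytochrome P450 domain genes were called in 126 of 732, with 96 higher and 30 lower (69 to 96 and 16 to 40 without 1 library, with 69 and 18 without control root replicate 2 and 72 and 16 without NaCl root replicate 2).

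**Figure D5:**
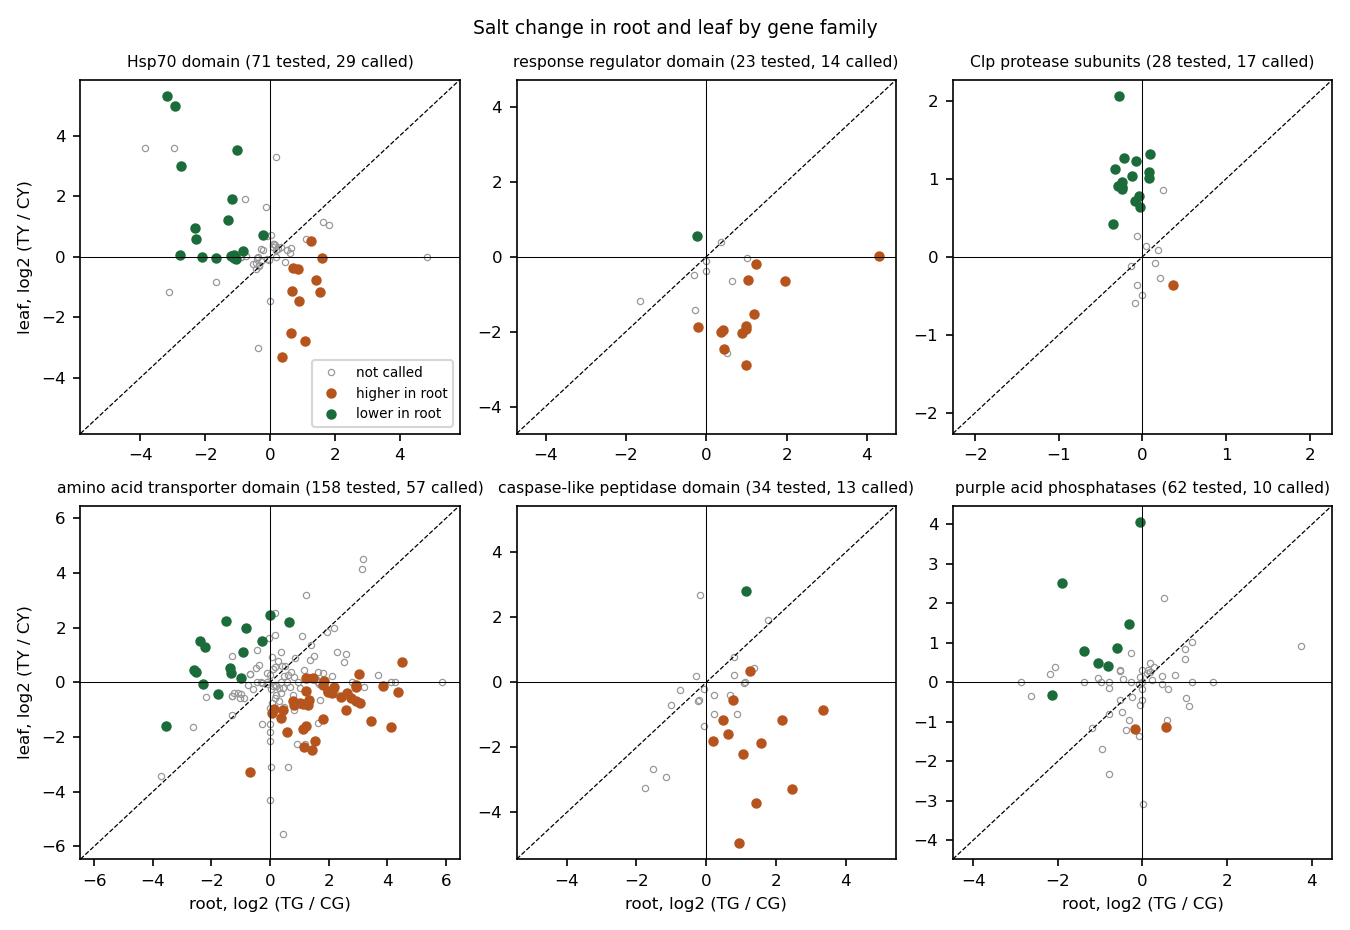
Salt change in root (log2 TG over CG, x axis) against salt change in leaf (log2 TY over CY, y axis) for the genes of 6 families, with filled points for a called tissue difference (orange higher in root, green lower in root) and a dashed line of equal changes. Hsp70 domain genes spread to both sides, response regulators and caspase-like peptidases lie mainly below the line, and the called Clp protease subunits, except 1, lie above it, with root changes that passed no test.

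Some groups of growth and turnover carried few calls and another did not. Of 270 cyclin, kinesin and DNA replication genes, 15 had a higher and 11 a lower salt change in root (8 to 16 and 7 to 14 without 1 library). The 9.63% called was close to the 11.1% of all genes. Among the 148 of them with enough reads in each tissue alone, fitting only such genes gave 18 higher and 10 lower. Of 420 core histone genes tested, 8 had a higher and 6 a lower salt change in root, 3.33% against 11.1% of all genes, but only 135 of the 420 had enough reads in each tissue alone. The lower count was 22 without NaCl root replicate 1 and 79 with limma on log2(FPKM + 1). Of 239 ribosomal protein genes, which rose with salt in 130 cases in root and 164 in leaf, 2 had a higher and 8 a lower salt change in root (4.18%). Over all genes tested, 14.2% rose in root and 10.4% in leaf. Of 32 autophagy-related genes, only the gene TraesCS4D02G224800, annotated as autophagy-related protein 9, was called. It had 8.72, 11.3 and 11.4 CPM in NaCl roots against 15.5, 17.3 and 16.6 in control roots, and 13.9, 12.7 and 11.3 CPM in NaCl leaves against 11.8, 12.4 and 9.78 in control leaves. The small difference of -0.81 ± 0.22 (edgeR adjusted p = 0.0313) lost its call when any of 8 libraries was left out.

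Salt also changed how far root and leaf stood apart. Of the 8790 genes, the gap between the tissues was wider with NaCl than without it in 2627 (29.9%, against 38.4% of all genes tested), narrower in 3351 (38.1%) and of turned order in 2812 (32%). The difference that chose these genes is itself the change in this gap, so the counts are descriptions. Shares over all genes were not taken for the narrower and turned classes. The order was turned with both gaps called in 774 genes, of which 511 were higher in root than in leaf with NaCl and 263 were lower. Glutathione synthetase TraesCS7A02G442500, the last enzyme of glutathione synthesis, named after its values were seen, was of the second kind. It had 8.79, 12.6 and 17.4 CPM in NaCl roots against 27.2, 24.7 and 27.7 in control roots, and 43.4, 44.2 and 47.3 CPM in NaCl leaves against 10.4, 8.78 and 7.59 in control leaves (difference -3.37 ± 0.30, edgeR adjusted p = 8.43e-05). CBFIIIc-B10, TraesCS5B02G312800, a factor of the cold-response CBF family, fell in root to 1.33, 0.179 and 0.264 CPM with NaCl, against 25.3, 27.8 and 23.2 in control roots, and had 5.47, 2.85 and 1.18 CPM in NaCl leaves against 7.76, 10.4 and 6.29 in control leaves, a leaf change that was not called (difference -4.04 ± 0.80, edgeR adjusted p = 0.00749).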

How the data were processed

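RNA of 12 libraries (NaCl and control roots and leaves, 3 each) was compared. Per the labels and the study's methods, the authors sequenced paired reads of 150 bases, aligned them to the Chinese Spring genome (IWGSC, Ensembl Plants release 45) and deposited a table of raw read counts per gene with no normalization, together with FPKM values, which the authors scaled per kilobase of gene and by a library factor that is not stated. The submitters' processing notes name HISAT2 2.0.5 and Bowtie 0.12.2 without saying what each did, and the counting tool and its strand setting were not given in the sources used here. Columns with the authors' own fold changes and p-values were not used.

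Counts were fitted with edgeR 4.0.16 (R 4.3.3) in one quasi-likelihood model of the 4 groups, after filterByExpr by group and TMM scaling, and the interaction contrast (TG - CG) - (TY - CY) was tested with Benjamini-Hochberg adjustment over the 79339 genes left, at an adjusted p of 0.05 or less. The same fit gave the salt change of each tissue. Standard errors are the log2 difference divided by the root of its F value. Opposite-direction calls passed all 3 tests with opposite signs. The fit was tested on simulated data. CPM were scaled by TMM over the 12 libraries, which held 27156078 to 31944933 reads. Folds against a group with no reads are lower bounds that assume 3 reads summed over its libraries. Where a group had 1 read, the ratio has an exact 95% interval. Bounds and intervals cover counting error only. P-values measure the spread between pooled samples. Same-numbered replicates did not deviate together (correlations of -0.04 to 0.08), so the numbers were not taken to pair samples.

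Gene groups were matched by description and by protein domain, the domain match and some exclusions being added once the table's columns were seen. The members and groups were chosen with earlier results of these data known. The genes named were the 6 largest differences each way among opposite-direction calls and the 3 largest each way among calls of the same direction, with a description, a mean log2 CPM of 3 or more and no overlap in either tissue, and in each group the 2 smallest p with that mean level. Others are said to have been chosen after their values were seen. Alternatives used RLE factors, library size alone, TMM within each tissue, other filters, all 18 libraries, a replicate block, DESeq2 1.42.0, limma 3.58.1 on log2(FPKM + 1), and each library left out in turn.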

Additional observations from a re-analysis of the deposited data

Results flagged for a closer look

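The test of the difference between the tissues itself picked out 8790 genes, of which 4892 had a higher and 3898 a lower salt change in root. It passed, with both tissues called in opposite directions, for 1114 genes, 716 of them up in root and down in leaf and 398 down in root and up in leaf. The 12 genes of this kind described above differed between root and leaf as follows, on the log2 scale. The difference was 6.02 for peroxidase TraesCS2A02G573900, a fitted 5.34 for ubiquinol oxidase TraesCS6D02G245800, which had no reads in control roots so that this value is no exact size, 5.04 for the MYB gene TraesCS3B02G612200 and 5.02 for chalcone isomerase TraesCS5D02G489000. It was 4.68 for the WAT1-related gene TraesCS7A02G169100 and 4.14 for MYB13 gene TraesCS3A02G535100. In the other direction it was -6.45 for heat shock protein 90 gene TraesCS2B02G047400 and -6.04 for the newly assembled NB-ARC gene on chromosome 7B. The peptidylprolyl isomerase TraesCS2D02G276000 and the purple acid phosphatase TraesCS4D02G343000 both had -4.42, while TraesCS2A02G277100 had -3.90 and glycosyltransferase TraesCS5B02G436500 had -3.71. Of the 1114 genes, 989 had enough reads in each tissue alone, which TraesCS6D02G245800, TraesCS2B02G047400 and the NB-ARC gene did not.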

How the results depend on the processing

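The 8790 interaction calls stayed within 1.5 times that count with RLE factors (8684), library size alone (8516), TMM within each tissue (8687), no filter (8119), a CPM of 1 or more in 3 libraries (9034), the filter within each tissue (9533) and all 18 libraries (10117). DESeq2 gave 13093 calls, with 7566 higher in root and 1093 opposite-direction calls up in root, and limma on log2(FPKM + 1) gave 16109, with 8941 higher and 7168 lower. With library size alone, 4103 were higher and 4413 lower, so the majority changed side. The replicate block gave 8330 calls. Leaving out 1 library gave 5296 to 8995 interaction calls, 3086 to 5440 higher and 2210 to 4002 lower in root, 672 to 1248 opposite-direction calls, 450 to 872 up in root and 222 to 376 down in root. The lowest values came without control root replicate 2, and without NaCl root replicate 2 there were 5647 calls. Of 108 named genes, 108 kept their call with RLE factors, 106 with the replicate block and 99 to 106 with 1 library left out. Limma on log2(FPKM + 1) turned the sign of 5, at 0.15 for TraesCS4D02G319400, 0.86 for TraesCS2B02G079300, 0.42 for TraesCS4A02G355600, 0.01 for TraesCS6D02G247400 and 0.33 for TraesCS1A02G057200, and ended the call of 3 others, catalases TraesCS6D02G048300 (2.00), TraesCS4B02G325800 (-0.25) and TraesCS4D02G322700 (-0.35), and the cause was not tested. Genes near 0 in root are limited by depth, since a few reads set their log2 change.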

Other observations

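Plants given 3-MA before NaCl entered no test here, and the group means of the 18 libraries scaled together are given as values. Peroxidase TraesCS2A02G573900 had 152 CPM in roots with 3-MA and NaCl, 115 in NaCl roots and 21.6 in control roots, and 2.02, 0.0965 and 1.24 CPM in the leaf groups of the same treatments. Chalcone isomerase TraesCS5D02G489000 had 18.7 CPM in roots with 3-MA and NaCl, 14.3 in NaCl roots and 1.44 in control roots, and 16, 9.57 and 31.4 CPM in the leaf groups. Heat shock protein 90 gene TraesCS2B02G047400 had 1.19 CPM in roots with 3-MA and NaCl, 3.04 in NaCl roots and 41.3 in control roots, and 0.239, 0.55 and 0.0808 CPM in the leaf groups. The leaf mean with 3-MA and NaCl lay between the means of NaCl and control leaves in the chalcone isomerase and heat shock protein 90 genes, and above both in the peroxidase. These are only 3 of the 12 genes of opposite direction, and the others were mixed. That mean also lay between in TraesCS3B02G612200, TraesCS7A02G169100, TraesCS3A02G535100, TraesCS2D02G276000 and TraesCS4D02G343000. In TraesCS3B02G612200, TraesCS3A02G535100 and TraesCS2D02G276000 it was close to the NaCl leaf mean (1.78 against 1.7, 1.71 against 1.7 and 6.05 against 6.11 CPM). It lay above both in TraesCS5B02G436500, TraesCS6D02G245800, TraesCS2A02G277100 and the newly assembled NB-ARC gene.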
